A study of Mus musculus with 18 samples.

Results

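The proteasome subunit genes of mouse skeletal muscle were taken from the RNA-seq table by symbol: Psma, Psmb, Psmc, Psmd, Psme, Psmf or Psmg followed by a digit, leaving out the immunoproteasome genes Psmb8, Psmb9 and Psmb10. The rule found 46 of the 23420 genes in the table. Of these, 16 encode the core particle, 17 the regulatory particle, and the other 13 comprise 7 assembly chaperones, 5 activators or inhibitors and Psmc3ip, a meiotic recombination factor that the rule matched by its name alone. RNA-seq was performed on the mixed hindlimb muscles of female C57BL/6J mice at 2 months (young, 2 m), 20 months (aged, 20 m) and 28 months (superaged, 28 m), with 3 mice per age and 1 library per mouse. The mice were of the same strain and sex, carried no labelled allele and received no labelled treatment, so that age is the labelled difference between the groups. Methylated DNA captured with a methyl-CpG-binding domain protein (MBD-seq) was sequenced from muscle and from splenic T cells, as 1 pool of 3 mice per age.

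The proteasome is the main protease of the cytosol and nucleus. A barrel of alpha and beta rings, the core particle, holds the peptide-cutting sites inside, and the regulatory particle that caps it recognizes ubiquitin-tagged proteins, removes the ubiquitin, unfolds the protein with a ring of ATPases and feeds it into the barrel. In skeletal muscle this route is known for breaking down contractile proteins during atrophy, and subunits of both particles can be induced together by the transcription factor Nfe2l1.

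The deposited RNA values were read counts divided by 1 size factor per library (normalized counts), and the reads recovered from them numbered 20203833 to 71115244 per library. Rn45s, the ribosomal RNA precursor, took 24.0 to 30.4% of them in the 6 libraries numbered 1 or 2 and 8.81 to 10.4% in the 3 libraries numbered 3. The 8 muscle fibre markers were all measured, with a sum of 6751290 to 7816640 normalized counts at 2 m, 6272130 to 7178330 at 20 m and 5989660 to 6165860 at 28 m, where every library lay below those of the other ages. Of the 8, 1 was called higher and 1 lower at both 20 and 28 against 2 months. The 6 slow fibre markers summed to 8247 to 92906 at 2 m, 120539 to 213993 at 20 m and 157243 to 194236 at 28 m, and all 6 rose at both older ages against 2 m. The first 2-m library held marrow genes (a summed 5140 normalized counts against 14.9 to 74.2 in the other 8). The adipocyte markers summed to 7234 to 11015 at 2 m, 4851 to 5447 at 20 m and 4704 to 6887 at 28 m, with 4 of 6 called lower at 20 and 2 at 28 against 2 months, and the Schwann cell markers to 5540 to 7151, 3596 to 5083 and 4575 to 6727, with 2 of 4 called lower at 20 against 2 months. The bulk RNA came from whole muscle, in which a different mix of cells and a different RNA level per cell cannot be told apart, and the part of fibre type, marrow, fat or nerve in the values below was not tested.

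Of the 46 genes, 44 passed a mean of 10 normalized counts and were tested. The exceptions were forms known from other organs: Psma8, the alpha subunit of testis, with a single read in each of 2 libraries, and Psmb11, the beta subunit of thymus, with a single read in 1 library. The testis markers summed to at most 4.46 normalized counts per library and the T-cell markers to 5.29 to 28.3. The muscle libraries thus held next to no RNA of Psma8 and Psmb11. The immunoproteasome genes, which the rule leaves out, were present at means of 281 (Psmb10), 211 (Psmb8) and 66.2 (Psmb9) normalized counts. Divided by exon length, the mean level over the 9 libraries ran from 1219 normalized counts per kb for Psma5 to 7579 for Psmb7 among the 14 core genes, a 6.22-fold range, and from 1325 for Psmd14 to 4679 for Psmc3 among the 17 regulatory genes, a 3.53-fold range. The median level was 2961 per kb for the core genes and 2916 for the regulatory genes. The 7 assembly chaperones among the members stood lower, from 197 per kb for Psmg4 to 449 for Psmg2, whereas Pomp, a core maturation factor that the rule does not hold, had 3182 and the activator Psme4 2721.

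Expression was compared between ages in 1 limma fit over the 13178 genes tested, with Benjamini-Hochberg adjustment over all of them; a gene was called at an adjusted p under 0.05. The members were measured precisely: their fold changes had a median standard error of 0.09 on the log2 scale against 0.15 over all genes tested. At 20 against 2 months, 3 members were called higher (Psmd11, Psmd5 and Psmd4) and 1 lower (Psme1), where 16.6% of all genes were called, 9.42% higher and 7.13% lower. At 28 against 2 months, 2 were called higher (Psmd11 and Psmb1) and none lower, where 13.8% of all genes were called, 7.53% higher and 6.24% lower. At 28 against 20 months no member was called by limma, edgeR or DESeq2, where 0.379% of all genes were called by limma (0.212% higher and 0.167% lower), and 4 members had an unadjusted p under 0.05, as did 10.6% of all genes. At that unadjusted level 15 members passed at 20 against 2 months and 6 at 28 against 2 months, where 31.5% and 28.2% of all genes did. No member in any comparison also differed by more than 2-fold, which 5.17% of all genes did at 20 against 2 months, 5.14% at 28 against 2 months and 1.31% at 28 against 20 months. The 95% interval lay within a fold of 2 either way for all 44 members at 20 against 2 months and for 43 at the other comparisons, the exception being Psmc3ip, against 74.2%, 75.4% and 80.6% of all genes at 20 against 2, 28 against 2 and 28 against 20 months.

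**Figure D1:**
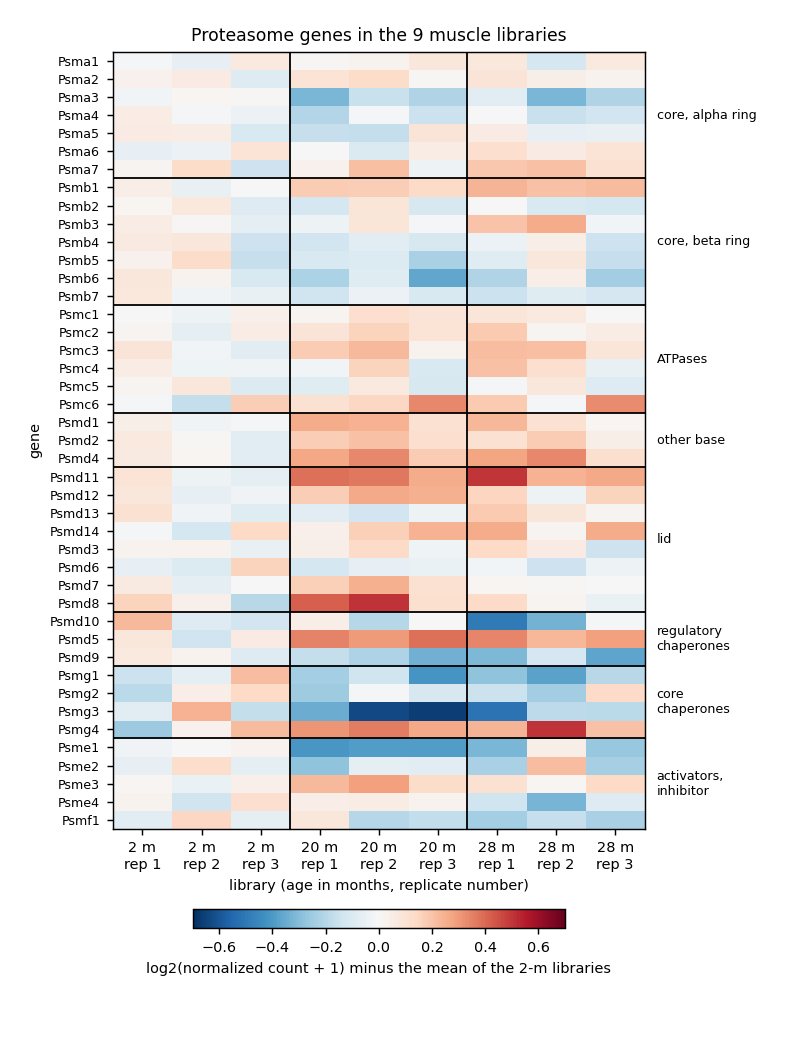
Heat map of the proteasome genes tested (rows, Psmc3ip left out) in the 9 muscle libraries (columns), grouped by role. Color gives log2(normalized count + 1) minus the mean of the 3 libraries of 2-m muscle: regulatory genes such as Psmd11 and Psmd4 are red in the libraries of 20-m and 28-m muscle, while Psme1 is blue in all 3 libraries of 20-m muscle.

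The map of the members by library shows small shifts. The rows of the core particle hold values of either sign, and among those of the base and lid 14 of 17 lie above 0 on average in 20-m muscle, the exceptions being Psmc5, Psmd6 and Psmd13. The palest columns are those of 2-m muscle, since each row is set against their mean.

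In the alpha ring, which gates the core, none of the 7 tested genes was called at any age. Their median log2 fold change was -0.02 at 20 against 2 months and 0.01 at 28 against 2 months, beside -0.02 and -0.01 over all genes tested. Psma3 had the lowest value, -0.23 (SE 0.08, adjusted p = 0.0703, limma) at 20 against 2 months: its normalized counts were 4427, 4527 and 4524 at 2 m and 3602, 4033 and 3883 at 20 m, without overlap.

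The beta ring carries the catalytic sites, in Psmb5, Psmb6 and Psmb7. Psmb5, the chymotrypsin-like subunit, had 2958, 3160 and 2590 normalized counts at 2 m, 2688, 2705 and 2469 at 20 m and 2727, 3052 and 2591 at 28 m. The 3 ages overlapped, and its log2 fold changes against 2 m were -0.14 and -0.06 (SE 0.09, adjusted p = 0.318 and 0.743, limma). Psmb6, the caspase-like subunit, had 4146, 3993 and 3646 at 2 m, 3364, 3695 and 3049 at 20 m and 3389, 4048 and 3318 at 28 m. These too overlapped, with log2 fold changes of -0.22 and -0.14 (SE 0.10, adjusted p = 0.141 and 0.402). Psmb7, the trypsin-like subunit and the most abundant core gene per kb, had 8122, 7572 and 7450 at 2 m, 6994, 7505 and 7148 at 20 m and 6936, 7275 and 7096 at 28 m. Every 28-m library lay below every 2-m library for Psmb7, with a log2 fold change of -0.12 (SE 0.07, adjusted p = 0.290). The 95% intervals of these 3 genes reached no lower than -0.44 at 20 against 2 months.

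Among the beta subunits without a catalytic site, Psmb1 differed from the rest. Its normalized counts were 3455, 3226 and 3343 at 2 m, 3779, 3771 and 3670 at 20 m and 3934, 3848 and 3890 at 28 m, and no 2 of the ages overlapped. The log2 fold change was 0.16 (SE 0.07, adjusted p = 0.114) at 20 against 2 months and 0.22 (SE 0.07, adjusted p = 0.0456, limma) at 28 against 2 months, a 1.16-fold rise. This call was kept in 8 of 21 alternatives, and leaving out any library but the second of 28-m muscle moved its adjusted p to 0.0634 to 0.129. The values of Psmb2, Psmb3 and Psmb4 overlapped between all ages.

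The ring of 6 ATPases, Psmc1 to Psmc6, which unfolds substrates, had no called gene at any age. At 20 against 2 months their log2 fold changes ran from -0.04 for Psmc5 to 0.20 for Psmc6, with 5 of 6 above 0, and at 28 against 2 months from -0.01 for Psmc5 to 0.17 for Psmc3. Psmc2 was the only ATPase gene whose 20-m libraries (5025, 5268 and 5051) all exceeded its 2-m libraries (4777, 4493 and 4900).

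The other 3 base genes, Psmd1, Psmd2 and Psmd4, had log2 fold changes of 0.20, 0.16 and 0.26 at 20 against 2 months, and for each of them the 2 ages did not overlap. Psmd4, a receptor for ubiquitin chains, was the one called. It had 5191, 5013 and 4725 normalized counts at 2 m, 5998, 6288 and 5614 at 20 m and 6021, 6274 and 5375 at 28 m. Both older ages lay above 2 m in every library, by 0.26 (SE 0.08, adjusted p = 0.0442) and 0.24 (SE 0.08, adjusted p = 0.0671, limma). Psmd1, the scaffold with the most exon sequence of the particle, had 9038, 8629 and 8717 at 2 m against 10510, 10424 and 9476 at 20 m (adjusted p = 0.0946).

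In the lid, which holds the enzyme that removes ubiquitin (Psmd14), 1 of 8 genes was called. Psmd11, a scaffold of the lid, had 3248, 2962 and 2909 normalized counts at 2 m, 3960, 3918 and 3631 at 20 m and 4292, 3591 and 3654 at 28 m. All 6 libraries of the older ages lay above the 3 of 2-m muscle. The log2 fold change was 0.34 at both older ages (SE 0.09, adjusted p = 0.0197 at 20 m and 0.0222 at 28 m, limma), a 1.26-fold rise. Psmd8 had the same value at 20 against 2 months, 0.34 (SE 0.11, adjusted p = 0.0544), with a wider spread: 6332, 5822 and 4957 at 2 m, 7582, 8058 and 6128 at 20 m, and 6222, 5749 and 5496 at 28 m. For Psmd8 the ages overlapped, and at 28 against 20 months, where it ranked first of the members by p, its value was -0.31 (SE 0.11, adjusted p = 0.341, limma). Psmd12 and Psmd7, also of the lid, were above their 2-m libraries in all 3 libraries of 20-m muscle and below the 20-m libraries in all 3 of 28-m muscle. Their log2 fold changes at 28 against 20 months were -0.14 (adjusted p = 0.572) and -0.17 (adjusted p = 0.424). Psmd13 ran the other way, with 0.18 at 28 against 20 months (adjusted p = 0.459). Psmd14 itself had 1866, 1729 and 2081 at 2 m and 1933, 2114 and 2232 at 20 m, which overlapped.

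**Figure D2:**
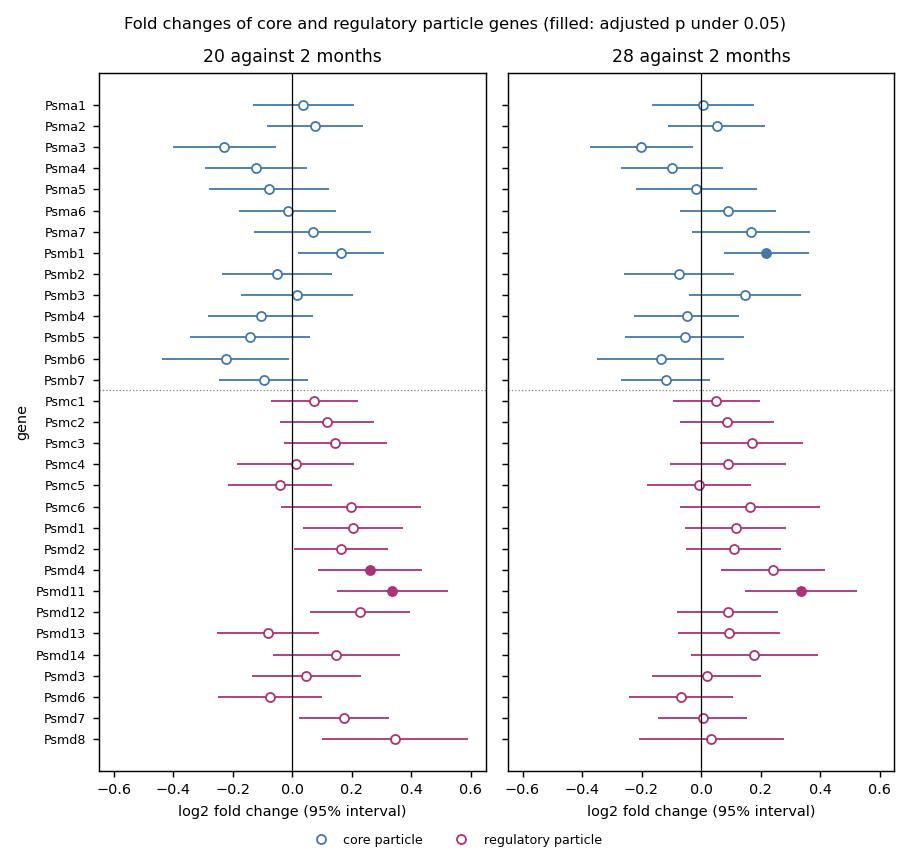
Log2 fold change (points) with the 95% interval (lines) of each core gene (blue) and regulatory gene (purple) at 20 against 2 months (left) and 28 against 2 months (right), from the limma fit over all genes tested; filled points have an adjusted p under 0.05. At 20 against 2 months the 14 core genes run from -0.23 to 0.16 and the 17 regulatory genes from -0.08 to 0.34; both panels share the 2-m libraries.

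The 2 particles are set side by side in the plot of fold changes. At 20 against 2 months, 14 of 17 regulatory genes had a log2 fold change above 0, against 5 of 14 core genes and 47.9% of all genes tested. The median was 0.15 for the regulatory genes, -0.07 for the core genes and -0.02 for all genes tested. The 20-m and 2-m libraries did not overlap in 7 of 17 regulatory genes, all higher, and in 2 of 14 core genes (Psmb1 higher, Psma3 lower), where 18.4% of all genes did so as higher and 17.6% as lower. At 28 against 2 months, 15 of 17 regulatory and 6 of 14 core genes were above 0, with medians of 0.09 and -0.03, where 48.5% of all genes tested were above 0. The groups did not overlap in 2 of 17 regulatory genes, both higher, and in 3 of 14 core genes (Psmb1 higher, Psma3 and Psmb7 lower), where 15.3% of all genes did so as higher and 15.0% as lower. At 28 against 20 months, 6 of 17 regulatory and 10 of 14 core genes were above 0 (49.3% of all genes), and the groups did not overlap in 3 regulatory genes (Psmd13 higher, Psmd7 and Psmd12 lower) and 2 core genes (Psma6 and Psmb1, both higher), where 8.63% of all genes did so as higher and 8.84% as lower. The regulatory median at 28 against 20 months, -0.02, kept no direction: it was 0.053 with quantile normalization, 0.0017 after scaling all libraries to 1 common sum, 0.059 with Rn45s left out of that sum, 0.0011 without the libraries numbered 3 and 0.014 without the second library of 20-m muscle. Over all genes tested the median was -0.0069 with quantile normalization, 0.021 with the common sum and 0.078 with Rn45s left out of it. The median of the core genes at 28 against 2 months turned to 0.01 when each library was rescaled to the same sum and to 0.02 when Rn45s was left out of that sum. The median over all genes tested moved from -0.01 to 0.03 and 0.04 under these settings. Over all 21 alternatives the regulatory median at 20 against 2 months stayed between 0.08 and 0.19, and the core median between -0.12 and -0.03.

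Within a library the 2 particles can be compared without any scaling between libraries. The summed level per kb of the 17 regulatory genes divided by that of the 14 core genes was 1.12, 1.08 and 1.14 in the libraries of 2-m muscle, 1.29, 1.28 and 1.25 in those of 20-m muscle and 1.23, 1.17 and 1.19 in those of 28-m muscle. The mean ratio was 1.11 ± 0.03 at 2 m, 1.27 ± 0.02 at 20 m and 1.20 ± 0.03 at 28 m (SD, n = 3), and the 3 ages did not overlap. The order of the ages was the same among the 3 libraries numbered 3 alone, those with the low share of Rn45s (1.14, 1.25 and 1.19). The first 2-m library, which held marrow genes, lay between the other 2 of its age. No p is given, since the genes were chosen with earlier results of these libraries known.

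The sums of the particles were read apart. The regulatory sum was 49806 ± 1444 normalized counts per kb at 2 m, 54793 ± 2188 at 20 m and 53091 ± 1975 at 28 m, and every 20-m library exceeded every 2-m library. The 28-m libraries, from 51269 upward, overlapped those of 2 m, which reached 51465. The core sum was 44753, 43015 and 44340, and overlapped between the ages. By the difference of the particles' median log2 changes, which weighs each gene alike, 2-m libraries ran from -0.05 to 0.05, 20-m libraries from 0.18 to 0.22 and 28-m libraries from 0.03 to 0.15, so that 28 m overlapped 2 m on this measure. Regulatory genes have more exon sequence per gene than core genes (median 1564 against 1036 bases), and the part of transcript length in the ratio was not tested.

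**Figure D3:**
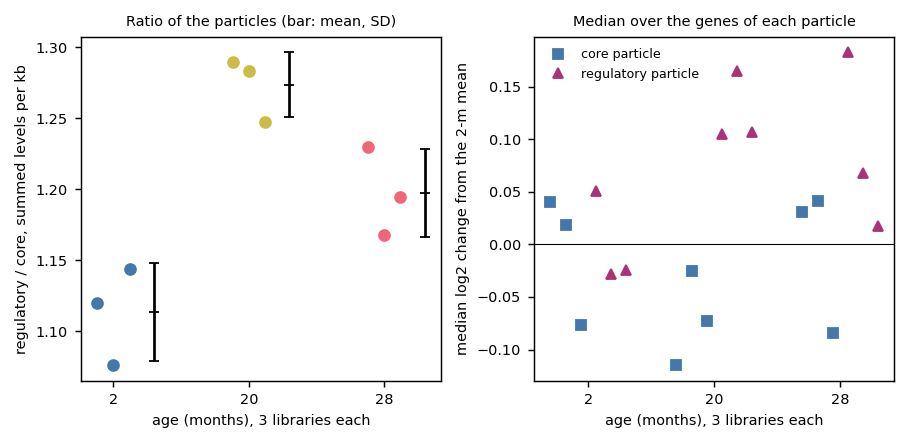
Left, regulatory particle divided by core particle in summed normalized counts per kb of exon, per library (points) with the mean and SD of 3 libraries (bars), by age in months; right, median log2 change from the 2-m mean over the genes of each particle, per library. The ratio lies at 1.08 to 1.14 at 2 m, 1.25 to 1.29 at 20 m and 1.17 to 1.23 at 28 m, and the axis does not start at 0.

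Assembly chaperones and activators had values of either sign. Psmd5, a chaperone that holds the ATPase ring before docking, was called higher in 20-m muscle. It had 675, 580 and 665 normalized counts at 2 m, 813, 786 and 834 at 20 m and 808, 750 and 779 at 28 m, with every older library above every 2-m library. The log2 fold change was 0.34 (SE 0.10, adjusted p = 0.0290, limma) at 20 against 2 months and 0.29 (adjusted p = 0.0675) at 28 against 2 months. The other chaperones of the regulatory particle, Psmd9 and Psmd10, had values at 28 against 2 months of -0.27 (adjusted p = 0.111) and -0.28 (adjusted p = 0.271). Of the 4 chaperones of the core, none was called. Psmg3 had the lowest value of all members at 20 against 2 months, -0.54 (SE 0.18, adjusted p = 0.0585), with 196, 245 and 184 normalized counts at 2 m and 163, 133 and 131 at 20 m. Psmg4, the partner of Psmg3, had 78.0, 95.2 and 109 at 2 m and 116, 120 and 112 at 20 m, a log2 fold change of 0.31 (SE 0.20, adjusted p = 0.318).

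Psme1, a subunit of the interferon-inducible activator cap, was the member called lower. It had 1159, 1177 and 1201 normalized counts at 2 m, 889, 898 and 898 at 20 m and 943, 1213 and 980 at 28 m. The 20-m libraries lay below all others, with a log2 fold change of -0.40 (SE 0.10, adjusted p = 0.0184, limma) at 20 against 2 months and 0.21 (SE 0.10, adjusted p = 0.480) at 28 against 20 months. Its partner Psme2, whose reads may be split with its near copy Psme2b, overlapped between the ages and was at -0.14 (adjusted p = 0.534). The interferon-response markers summed to 1210 to 1500 normalized counts at 2 m, 994 to 1046 at 20 m and 1527 to 1871 at 28 m, with 3 of 7 called lower at 20 against 2 months and 2 called higher at 28 against 20 months. The macrophage markers summed to 3433 to 4909, 3116 to 3228 and 3279 to 4530, with 3 of 7 called lower, and their part in the value of Psme1 was not tested.

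The immunoproteasome genes left out of the rule had their lowest values at the same age. Psmb8 had 290, 241 and 225 normalized counts at 2 m, 148, 159 and 132 at 20 m and 201, 302 and 200 at 28 m, a log2 fold change of -0.78 (SE 0.19, adjusted p = 0.0152, limma) at 20 against 2 months and 0.66 (adjusted p = 0.198) at 28 against 20 months. Psmb9 and Psmb10 had -0.62 (adjusted p = 0.191) and -0.29 (adjusted p = 0.232) at 20 against 2 months.

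The remaining activators serve other routes into the core. Psme4, the large activator known for histone degradation, had 18333, 16402 and 19556 normalized counts at 2 m, 18619, 18676 and 18361 at 20 m and 16416, 14432 and 16937 at 28 m. All 28-m libraries lay below the 20-m libraries, with a log2 fold change of -0.22 (SE 0.09, adjusted p = 0.384, limma). Psme3, the nuclear activator, had 0.21 at 20 against 2 months (adjusted p = 0.0703), and the inhibitor Psmf1 had -0.21 at 28 against 2 months (adjusted p = 0.245). Psmc3ip, at 30.0 to 70.4 normalized counts, overlapped between the ages.

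**Figure D4:**
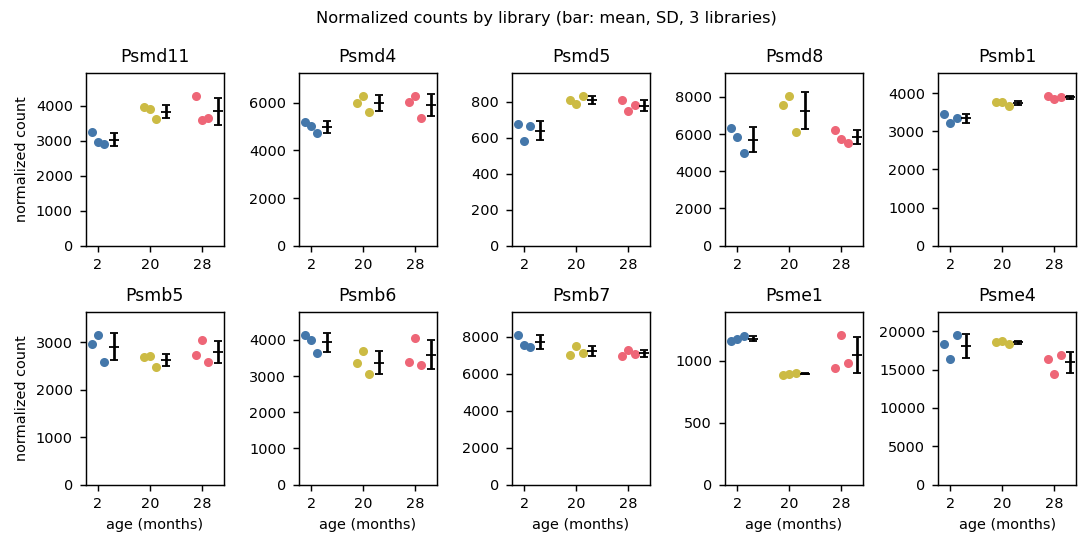
Normalized counts of 10 members in each library (points) by age in months, with the mean and SD of 3 libraries (bars); each axis starts at 0. Psmd11, Psmd4 and Psmd5 lie higher in all 6 libraries of the older ages than in the 3 of 2-m muscle, Psmb1 steps from 3226 to 3455 through 3670 to 3779 to 3848 to 3934, and Psme1 lies at 889 to 898 in 20-m muscle against 1159 to 1201 in 2-m muscle.

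The plot of single members shows these steps on axes from 0. The calls rested on few libraries. At 20 against 2 months, leaving out the first or the second library of 20-m muscle left no member called in either direction, where the calls over all genes went from 2181 to 1081 or 1264. Psmd11 then had an adjusted p of 0.0848 or 0.0734, Psmd5 of 0.0919 or 0.0658, Psmd4 of 0.132 or 0.157, and Psme1 of 0.0680 or 0.0571 (limma). Without the second library of 2-m muscle only Psmd11 was called higher, and Psmd5 had 0.0933 and Psmd4 0.0730. Without the third library of 2-m muscle only Psmd5 was, with 0.0583 for Psmd11 and 0.120 for Psmd4. Without the first library of 2-m muscle, with its marrow genes, Psmd11, Psmd5 and Psmd8 were called and Psmd4 had 0.0664. Psmd5 had 0.0842 without the third library of 20-m muscle, and Psmd4 had 0.0566 without the first library of 28-m muscle. Without the second library of 28-m muscle 4 were called higher and 2 lower. At 28 against 2 months Psmd11 was lost without the second or the third library of 2-m muscle (0.0518 and 0.0653) or the first of 28-m muscle (0.101). The log2 fold changes of these members kept their sign throughout, from 0.26 to 0.39 for Psmd11, 0.27 to 0.38 for Psmd5, 0.19 to 0.30 for Psmd4 and -0.43 to -0.38 for Psme1 at 20 against 2 months over 21 alternatives. With the replicate number as a block, 6 members were called higher and 2 lower at 20 against 2 months, of 3000 genes called in all, and 4 higher at 28 against 2 months, of 2529. When each library was rescaled to the same sum no member was called, where the calls over all genes at 20 against 2 months went from 2181 to 586. With the 3 libraries numbered 3 left out only Psmd8 was called at 20 against 2 months, where 1099 of all genes were.

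Genes around the proteasome were read from lists of the same fit, beside 9.42% of all genes called higher and 7.13% lower at 20 against 2 months and 7.53% and 6.24% at 28 against 2 months. Of 9 proteins bound to the proteasome, Usp14, a deubiquitinase docked on the base, was the one called: it had 1661, 1531 and 1833 normalized counts at 2 m, 2201, 2246 and 2419 at 20 m and 2273, 1817 and 2476 at 28 m. It rose by 0.45 (SE 0.11, adjusted p = 0.0165) and 0.38 (adjusted p = 0.0418, limma) on the log2 scale at 20 and 28 against 2 months. Of 15 genes for ubiquitin, its activation and substrate shuttling, 4 were called higher and none lower at 20 against 2 months, among them the ubiquitin gene Ubb (0.25) and the Vcp cofactor Nploc4 (0.36). At 28 against 2 months 1 of the 15 was called higher and none lower. Neither Ubb nor Nploc4 was called there, with 0.03 (adjusted p = 0.853) for Ubb and 0.26 (adjusted p = 0.0863, limma) for Nploc4.

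Of 7 genes known to act on the transcription of proteasome genes, 4 were called higher and none lower at 20 against 2 months, and 2 higher at 28 against 2 months. Nfe2l1 had 33694, 37065 and 26844 normalized counts at 2 m, 47748, 44109 and 42895 at 20 m and 45896, 48014 and 43069 at 28 m. It rose by 0.48 (SE 0.11, adjusted p = 0.0135) and 0.50 (SE 0.11, adjusted p = 0.0120, limma) at 20 and 28 against 2 months. Its relative Nfe2l2, known for the oxidative stress response, rose by 0.60 (adjusted p = 0.00809) and 0.42 (adjusted p = 0.0492), and the small partner Maff by 1.13 (adjusted p = 0.00806) at 20 against 2 months. Ddi2 and Ngly1, which process the Nfe2l1 protein, were not called (0.38 and 0.13, adjusted p = 0.275 and 0.408).

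Of 12 muscle ubiquitin ligases, 5 were called higher and none lower at 20 against 2 months and 2 higher at 28 against 2 months. The largest values at 20 against 2 months were those of Fbxo32 (1.22, adjusted p = 0.00674) and Trim63 (0.79, adjusted p = 0.00601), the ligases known from atrophy, and of Fbxo40 (0.60, adjusted p = 0.000701, limma). At 28 against 2 months Fbxo40 (0.43) and Fbxo30 (0.39) were called. Beside these, no tested member had an absolute log2 fold change over 0.54 at 20 against 2 months, and none of these pathway lists had a called gene at 28 against 20 months.

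The promoters of the members were searched for the letters TGACNNNGC, which Nfe2l1 and Nfe2l2 bind together with small Maf proteins. RefSeq promoter windows (GRCm38.p6) were found for 38 of the 46 genes, 41 windows in all, and the 250 bases before the start were searched on both strands. Windows for Psma8, Psmb1, Psmb2, Psmb7, Psmc3, Psmd3, Psmd7 and Psmg2 were not analysed here. TGACNNNGC was found in 5 of 41 windows (12.2%), against 11.7% of the windows of tested genes and 10.2% of all windows, and CCAAT, the box of the factor NF-Y, in 14 of 41 (34.1%) against 34.6% and 33.8%. None of the 5 windows held CCAAT. The 5 matches are shown, with TGACNNNGC or its reverse complement in capitals and up to 30 bases on either side, ending at the start site:
Psmb5: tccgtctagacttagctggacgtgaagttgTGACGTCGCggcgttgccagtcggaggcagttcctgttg
Psmb6: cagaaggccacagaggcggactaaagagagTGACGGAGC
Psmd9: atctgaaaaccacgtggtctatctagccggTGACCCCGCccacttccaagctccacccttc
Psmc6: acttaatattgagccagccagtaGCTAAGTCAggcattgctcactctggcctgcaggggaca
Psmd12: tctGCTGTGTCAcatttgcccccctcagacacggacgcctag

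These stretches lie at chr14:54618004-54618072 (minus strand), chr11:70525318-70525356 (plus strand), chr5:123228129-123228189 (plus strand), chr14:45329574-45329635 (plus strand) and chr11:107479278-107479319 (plus strand), before the start site of each window. The annotated RefSeq gene span of Psmb6 begins at position 70525324, so that the end of that stretch, with the match, lies inside it. In Psmb5, Psmb6 and Psmd9 the match reads in the direction of the gene and begins 47, 9 and 31 bases before the start. In Psmc6 and Psmd12 it lies on the other strand, 227 and 247 bases before the start. None of these 5 genes was called by limma without a block at any age, and the called members Psmd11, Psmd4, Psmd5 and Psme1 had no match in their windows. A match describes letters and is not a measured site.

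In the MBD-seq data, start sites of members lay in a dip of captured DNA. In the 500-base bin of the start site, the median normalized count over the 41 windows was 0.910 at 2 m, 0 at 20 m and 4.46 at 28 m, where the windows of tested genes had 0.910, 0.842 and 3.82 and the median of all bins was 7.28, 8.42 and 13.4. At 2 m and 20 m, 18 and 25 of the 41 bins held no read (43.9 and 61.0%), and at 28 m 2 (4.88%), where 44.2, 47.6 and 8.89% of the windows of tested genes held none. In T cells the median was 0 at all ages. The mean over the windows was 3.73 (95% Poisson interval 3.19 to 4.34, counting error only) at 2 m, 2.92 (2.46 to 3.44) at 20 m and 6.40 (5.80 to 7.05) at 28 m, where the windows of tested genes had means of 7.03, 5.92 and 6.85. The member means at 2 m and 20 m rested mostly on Psmb11, which was not among the tested genes, Psma6 and Psmd10, with 70, 30 and 22 of 168 reads at 2 m and 59, 25 and 30 of 142 at 20 m. There was 1 pool per age and hence no test, and the muscle columns do not name which of 2 capture rounds they hold.

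**Figure D5:**
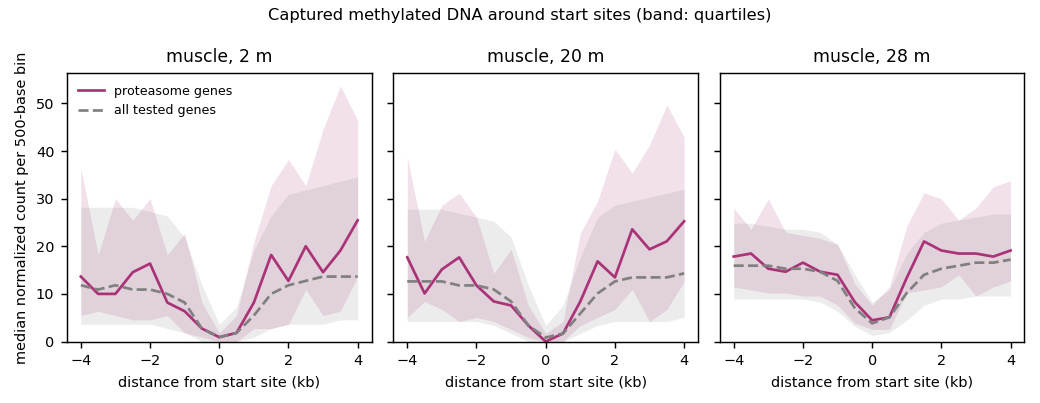
Median normalized MBD-seq count per 500-base bin against the distance from the start site in kb, for 41 windows of proteasome genes (purple) and the windows of all tested genes (grey, dashed), with bands from the first to the last quartile, in muscle of each age (1 pool per age). Both curves dip at the start site, to 0.910 and 0.910 at 2 m and to 4.46 and 3.82 at 28 m.

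The profile around start sites shows the same dip for the members as for tested genes in general, with a higher floor at 28 m in both, where the median of all bins was higher too. The 3 highest windows of the members in 2-m muscle belonged to Psmb11, Psma6 and Psmd10. Psmb11, the thymus form with a single read in 1 muscle library, was the highest member in all 6 columns, with 63.7, 49.7 and 36.3 in muscle and 128, 161 and 182 in T cells at 2, 20 and 28 m, and its 250 bases upstream held 4 CpG sites where the median member held 15. Psma6 has 2 annotated starts: the window with 2 CpG sites had 27.3, 21.0 and 15.9 in muscle, and the window with 20 had 0, 0 and 5.74. Psmd10, on the X chromosome of female mice, had 20.0, 25.3 and 25.5, where the 466 windows of tested genes on X had medians of 38.7, 28.2 and 17.5. Of the called members, Psmd11 had 0, 0 and 1.27 and Psme1 had 0, 0.842 and 2.55, below the member median at 28 m. Psmd4 had 3.64, 1.68 and 8.92 and Psmd5 had 0.910, 0 and 7.65, above that median, and the window of Psmb1 was not analysed here.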

How the data were processed

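Poly-A RNA was sequenced from the 9 muscles with a kit that does not mark strand. Per the methods, reads were trimmed with Trim Galore, aligned to mm10 with Hisat2 (the labels' tool list names TopHat), and counted over RefSeq genes with HTSeq. The authors deposited signal values: counts divided by 1 DESeq2 size factor per library. MBD-seq reads were aligned with Bowtie2 and deposited by the authors as signal, counts in 500-base bins over a size factor. All nonzero values (100%) were whole multiples of 1 read, within 0.001 reads. The 5 rows naming no gene (37.9 to 47.7% of each library's values) were left out.

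Log2(normalized count + 1) was fitted with limma 3.58.1 (trend, R 4.3.3) over the 13178 genes with a mean of at least 10, with age as the only term, on all 9 libraries. Alternatives were a pseudocount of 0.1 or 5, a minimum mean of 50 or none, 3 other scalings, a replicate block, only the ages compared, edgeR 4.0.16 (quasi-likelihood) and DESeq2 1.42.0 on recovered reads, and libraries left out. The same sum without Rn45s was chosen after seeing the data. Code was tested on simulated data. Named members were the catalytic subunits, up to 6 called members with the largest change per contrast and direction, or else the 2 with the smallest p, and from pathway lists up to 3 called genes. Further members are named to describe their group, chosen after their values were seen. Members and lists were chosen with earlier results of these data known. Each library is 1 mouse. The replicate numbers do not pair the mice by any label, and deviations from the age means correlated above 0.1 between the libraries numbered 3 (0.109, 0.150 and 0.161) and in 1 pair of unequal numbers (0.117), but in no other pair of equal number. Exon lengths were unions of RefSeq exons (GRCm38.p6). Tables and figures used Python 3.11.15. The values of 1 gene outside the members are not reported here.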

Additional observations from a re-analysis of the deposited data

How the results depend on the processing

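Under the alternatives 10 named members were followed over the 3 comparisons. Of their 630 values, 538 kept their direction and their side of the threshold, 50 lost a call, 15 gained one and 27 changed sign. Most of these values were not called in the main fit and had no call to lose. At 20 against 2 months the call was kept in 16 of 21 alternatives for Psme1, 15 for Psmd11, 14 for Psmd5 and 9 for Psmd4. At 28 against 2 months it was kept in 14 of 21 for Psmd11 and 8 for Psmb1. Psmc3ip, the tested member with the lowest mean (51.7 normalized counts), had a standard error of 0.33 on the log2 scale, and Psmb1, at a mean of 3657, had 0.07, so that small changes of low members were least detectable at this depth. Causes of the changes below were not tested.

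The replicate block, which assumes that equal numbers pair the mice, gave 6 members higher and 2 lower at 20 against 2 months, 4 higher at 28 against 2 months and 0 at 28 against 20 months. All genes called rose to 3000, 2529 and 138. Not every library correlated best with its own number.

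Without the filter on low values, 2 members were higher and 0 lower at 20 against 2 months and 1 higher at 28 against 2 months, of 969 and 837 genes called in all. After scaling all libraries to 1 common sum, 0 were higher and 0 lower at 20 against 2 months and 0 higher at 28 against 2 months, while all genes called fell from 2181 to 586 and from 1814 to 554. Quantile normalization gave 2 lower at 20 against 2 months, of 2103 genes called in all, and DESeq2 gave 5 higher and 2 lower, of 2558. With only the 2 ages compared in the fit, 0 were higher at 28 against 2 months, of 1309, and edgeR gave 1, of 1775. With the 3 libraries numbered 3 left out, 1 was higher and 0 lower at 20 against 2 months and 0 higher at 28 against 2 months, of 1099 and 712 genes called in all. Leaving out 1 library at a time gave 0 to 4 higher and 0 to 2 lower at 20 against 2 months, and 0 to 2 higher and 0 to 1 lower at 28 against 2 months.

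Quantile normalization moved the regulatory median log2 fold change to 0.079 at 20 against 2 months and 0.053 at 28 against 20 months. The common sum without Rn45s moved the medians at 28 against 20 months to 0.14 for core and 0.059 for regulatory genes. Under that setting the median over all genes tested moved too, from -0.0026 to 0.078. Leaving out 1 library moved the core median at 28 against 2 months over -0.094 to -0.00015 and the regulatory median at 28 against 20 months over -0.040 to 0.014. The regulatory median at 28 against 2 months then ran from 0.050 to 0.13.

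Changes of sign were among values near 0. At 28 against 20 months the log2 fold change of Psmb7 was 0.0013 with the common sum, 0.059 without Rn45s in that sum and 0.057 with quantile normalization. That of Psmd11 was 0.023, 0.081 and 0.053 under these settings, 0.0035 by edgeR and 0.0059 by DESeq2, and that of Psmd4 was 0.0035, 0.061 and 0.058, and 0.0011 without the libraries numbered 3. Psmd5 had 0.024 with the common sum without Rn45s. At 28 against 20 months the median over all genes tested was 0.021 with the common sum and 0.078 without Rn45s in it. With quantile normalization that median was -0.0069. Psme4 at 20 against 2 months had -0.059 with quantile normalization, and Psmd8 at 28 against 2 months had -0.022 without the libraries numbered 3. Leaving out 1 library gave -0.082 to 0.047 for Psmd11, -0.045 to 0.0062 for Psmb7, -0.067 to 0.044 for Psmd4 and -0.0026 to 0.16 for Psmb6 at 28 against 20 months, -0.14 to 0.0081 for Psmb5 and -0.062 to 0.11 for Psmd8 at 28 against 2 months, and -0.029 to 0.097 for Psme4 at 20 against 2 months.

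For MBD-seq, the start-site bin with its 2 neighbours gave member medians of 3.03, 2.81 and 7.01 in muscle and 2.71, 3.65 and 2.64 in T cells at 2, 20 and 28 m. The mean over the windows was 3.73, 2.92 and 6.40 in muscle and 5.22, 6.56 and 7.16 in T cells, where Psmb11 alone held 126 of 211, 132 of 221 and 138 of 222 reads. The common sum gave a median of 5.38 in 28-m muscle.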
